A study of Mus musculus with 18 samples.

Results

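Genes of PI3K, Akt and mTOR signalling were followed through 3 mononuclear phagocyte populations of the LPS-exposed mouse lung, in wild-type cells and in cells in which ezrin was targeted for deletion. The set was chosen by gene name and holds 43 of the 21254 genes of the count table, ordered here by role from the lipid kinases to the substrates of Akt and mTORC1. Of these, 42 had enough reads to be among the 15811 genes tested. The exception was Irs1, an insulin receptor adaptor, which lay between 0 and 0.332 CPM, the number of reads on a gene divided by the TMM-scaled library total and set to the same total in every library, in the 18 libraries.

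Class I PI3Ks phosphorylate a phosphoinositide at the plasma membrane when receptors, integrins or G proteins are engaged, and the lipid that results recruits Akt and its activator PDK1. Akt restrains FoxO transcription factors, GSK3 and the TSC complex, and the last step frees Rheb to activate mTORC1, which controls translation and anabolic metabolism. Lipid phosphatases such as SHIP1 and INPP4 proteins and the PHLPP protein phosphatases oppose the signal, and in phagocytes the pathway is known for its part in migration, phagocytosis and the response to LPS. Most of its regulation acts through phosphorylation and lipid levels, on which transcript counts are silent.

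B6 mice aged 3 to 5 months received LPS of Pseudomonas aeruginosa by nebulization (12.5 mg in 5 ml, 15 min), and 24 h later their perfused lungs were dissociated and sorted. CD45+CD11b+ cells were split into monocyte-derived macrophages (moMs, MHC-II-Ly6C+), transitional interstitial macrophages (tnsIMs, MHC-II+Ly6C+) and mature interstitial macrophages (matIMs, MHC-II+Ly6C-). The study's gating methods took these cells from the CD11c- fraction once granulocytes were set aside and placed dendritic cells in the CD11c+ gate, whereas the sort markers in the labels do not mention CD11c. Ezr-KOm mice carried floxed Ez alleles (Ez fl/fl) together with Cx3cr1-Cre, and WT mice carried the same Cre with unfloxed Ez, so that both genotypes expressed Cre and both had been given LPS. Cre expression followed Cx3cr1, a promoter that the study describes as also weakly active in classical dendritic cells, eosinophils and NK cells. Each of the 6 groups had 3 libraries. No group without LPS was analysed here, so the values describe inflamed lungs only.

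Library totals ran from 16512783 to 48460995 counts. Ezr itself, the deleted gene, differed between Ezr-KOm and WT by -1.20 on the log2 scale in moMs (adjusted p = 0.0549), -1.62 in tnsIMs (adjusted p = 0.00365) and -2.29 in matIMs (adjusted p = 7.73e-05). It averaged 231, 191 and 135 CPM in Ezr-KOm moMs, tnsIMs and matIMs, against 531, 586 and 661 in WT. Ezr reads were thus reduced and not absent in Ezr-KOm libraries. WT tnsIM replicate 2 stood apart for the signalling genes, being the lowest of the 18 libraries for 15 of the 42 tested members, a place it held for 12.5% of all tested genes. The populations also differed in markers of other cells. The 9 dendritic cell markers summed to 114–168 CPM in WT moMs, 208–455 in WT tnsIMs and 3490–4960 in WT matIMs, with none at 0 in any of these groups. The 8 epithelial markers summed to 125–155, 2890–4470 and 574–634 CPM, the 9 B cell markers to 9.79–14.4, 63.1–97.5 and 174–257 CPM, and the 12 macrophage and monocyte markers to 36600–43300, 21900–32500 and 13200–15500 CPM in the same order. The part of these markers in the population differences below was not tested. In bulk libraries, fewer cells that express a gene and less RNA per cell cannot be told apart.

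Per kilobase of transcript, the most abundant member was Sgk1, an Akt-related kinase, at 372 ± 111 CPM per kb in WT moMs (SD, n = 3). Akt1 followed at 144 ± 16.5, the B cell adaptor for PI3K Pik3ap1 at 89.6 ± 5.44, Inpp5d at 79.995 ± 10.042 and Rheb at 68.7 ± 9.90 CPM per kb. At the other end, Phlpp2 stood at 0.159 ± 0.0347, Inpp4b at 0.345 ± 0.0805 and Foxo4 at 0.358 ± 0.0709 CPM per kb. Among related genes, Akt1 made up 92.0% ± 0.120 of the summed per-kb level of Akt1 and Akt2 in WT moMs, and Inpp5d (SHIP1), the haematopoietic 5-phosphatase, 96.3% ± 0.721 of that of Inpp5d and Inppl1 (SHIP2).

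**Figure D1:**
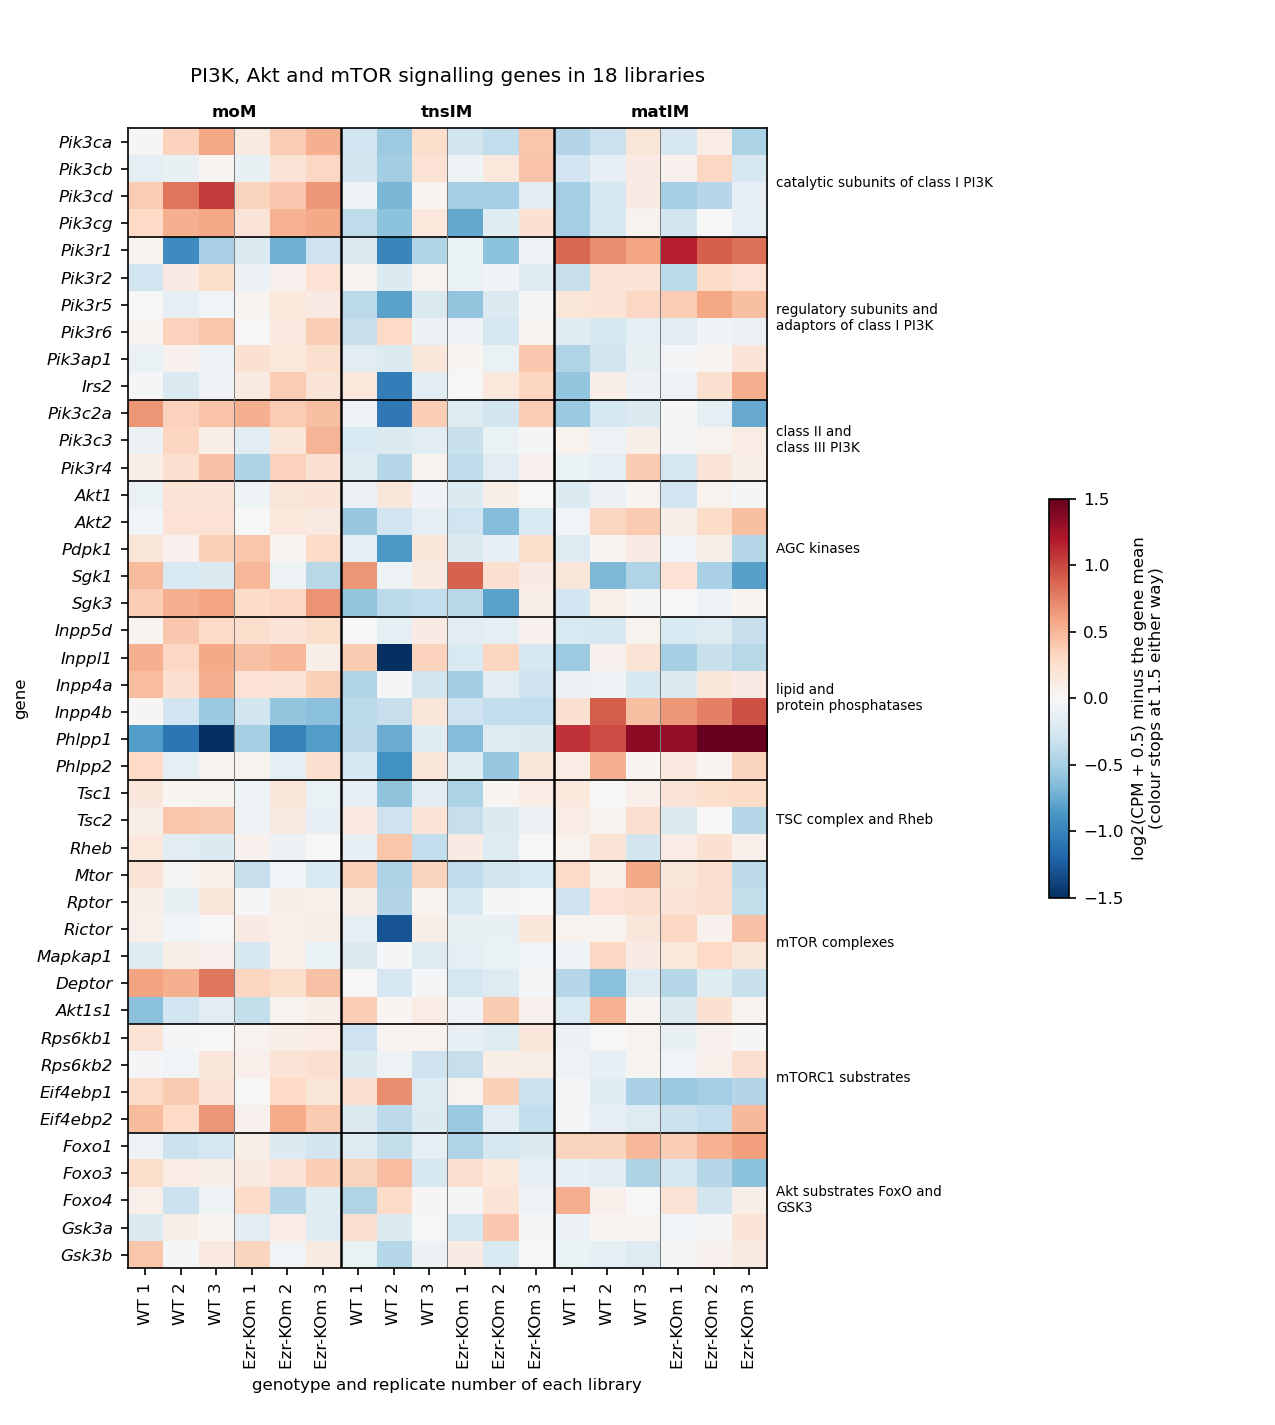
Level of each tested member in each of the 18 libraries, as log2(CPM + 0.5) minus the mean of that gene over all libraries, with members in rows by role and libraries in columns by population and genotype. Phlpp1, Pik3r1 and Inpp4b were highest in the matIM columns and Pik3cd and Deptor in the moM columns, while most rows showed little contrast.

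Between the populations of WT lungs, Phlpp1, Pik3r1, Inpp4b and Foxo1 rose towards matIMs, and Pik3cd and Deptor were highest in moMs. Called and uncalled members stood side by side in most roles, and the 6 phosphatases had 2 members higher and 2 lower in matIMs than in moMs. From moMs to tnsIMs, 8 of 42 members were called at an adjusted p under 0.05 (19.0%), against 21.6% of all tested genes. Phlpp1 was higher in tnsIMs, as were 13% of all genes, while Pik3cd, Pik3cg, Akt2, Sgk3, Inpp4a, Deptor and Eif4ebp2 were lower, as were 8.61% of all genes. From tnsIMs to matIMs, 6 members were called, against 18.5% of all genes. All were higher, as were 8.32% of all genes, namely Pik3r1, Pik3r5, Akt2, Inpp4b, Phlpp1 and Foxo1. By this edgeR test 0 were lower, against 10.2% of all genes. Between moMs and matIMs, 13 members were called (31.0%), against 24.8% of all genes. Of these, 4 were higher in matIMs (13.4% of all genes were), and 9 were lower (11.4% of all genes were). The median log2 difference over the members was -0.25, 0.10 and -0.09 in these comparisons, against 0.01, 0.04 and 0.01 over all tested genes. The libraries of the groups compared did not overlap for 15, 10 and 18 members, against 36%, 31.5% and 41.4% of all genes. Without WT tnsIM replicate 2, 6, 5 and 14 members were called.

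The replicate numbers paired the libraries, and a fit with that number as a block kept every one of these calls while adding others. It called 12 members between moMs and tnsIMs (Akt1s1, Gsk3b, Pik3r4 and Pik3r5 in addition), 9 between tnsIMs and matIMs (Eif4ebp1, Foxo3 and Sgk1) and 18 between moMs and matIMs (Akt1s1, Eif4ebp1, Gsk3b, Pik3ca and Sgk1). Leaving out WT moM replicate 3 or WT matIM replicate 2 took the last count from 13 to 7, and leaving out WT moM replicate 2 or WT matIM replicate 1 took it to 8. Between moMs and tnsIMs, the count was 4 without WT moM replicate 3 and 5 without WT tnsIM replicate 1. The share of all tested genes was not taken for the blocked fit or for fits without 1 library. The calls added by the block are therefore not a result about the members. The test named in the paragraphs below is the fit without a block, unless another is named.

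Among the class I catalytic subunits, Pik3cd and Pik3cg, which encode the leukocyte isoforms p110 delta and p110 gamma, were lower in both MHC-II+ populations. The broadly expressed Pik3ca and Pik3cb did not pass the test without a block in any WT comparison. With the replicate block, Pik3ca was called between WT moMs and matIMs, at means of 44.5 and 31.1 CPM. Pik3cd measured 247, 331 and 395 CPM in the WT moM libraries, 180, 118 and 195 in tnsIMs and 133, 161 and 208 in matIMs. Every moM library was above every tnsIM and matIM library. Pik3cd fell by 0.98 ± 0.21 (log2, SE) from moMs to tnsIMs (adjusted p = 0.00239), and was -0.95 ± 0.21 in matIMs against moMs (adjusted p = 0.00215), a call that held in every setting tried. Pik3cg measured 123–149 CPM in moMs, 65.1–111 in tnsIMs and 69.9–104 in matIMs. Its log2 difference from moMs was -0.72 (adjusted p = 0.0295) in tnsIMs and -0.69 (adjusted p = 0.0308) in matIMs. The matIM call was lost on leaving out WT moM replicate 2 or 3 or WT matIM replicate 1 or 2 (adjusted p 0.0534 to 0.0841). The tnsIM call was lost without WT moM replicate 2 or 3 or WT tnsIM replicate 1 or 2 (adjusted p 0.0633 to 0.123).

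On the per-kb scale, Pik3cd supplied 56.7% ± 3.29 of the class I catalytic transcripts in WT moMs (53.2–59.7%), 48.6% ± 3.88 in tnsIMs (46.0–53.1%) and 48.2% ± 1.05 in matIMs (47.1–49.2%). Pik3cg stayed between 25.7% and 25.9% on average. Pik3cb supplied 12.3% ± 1.57 of WT moM transcripts, 19.0% ± 1.31 of those in tnsIMs and 19.8% ± 1.12 of those in matIMs, and no moM library reached the other 2 populations. Pik3ca contributed 5.36%, 6.41% and 6.16%. With lengths from all exons in place of the canonical transcript, the moM share of Pik3cd was 54.9% and the matIM share 46.2%. These shares were given no test.

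**Figure D2:**
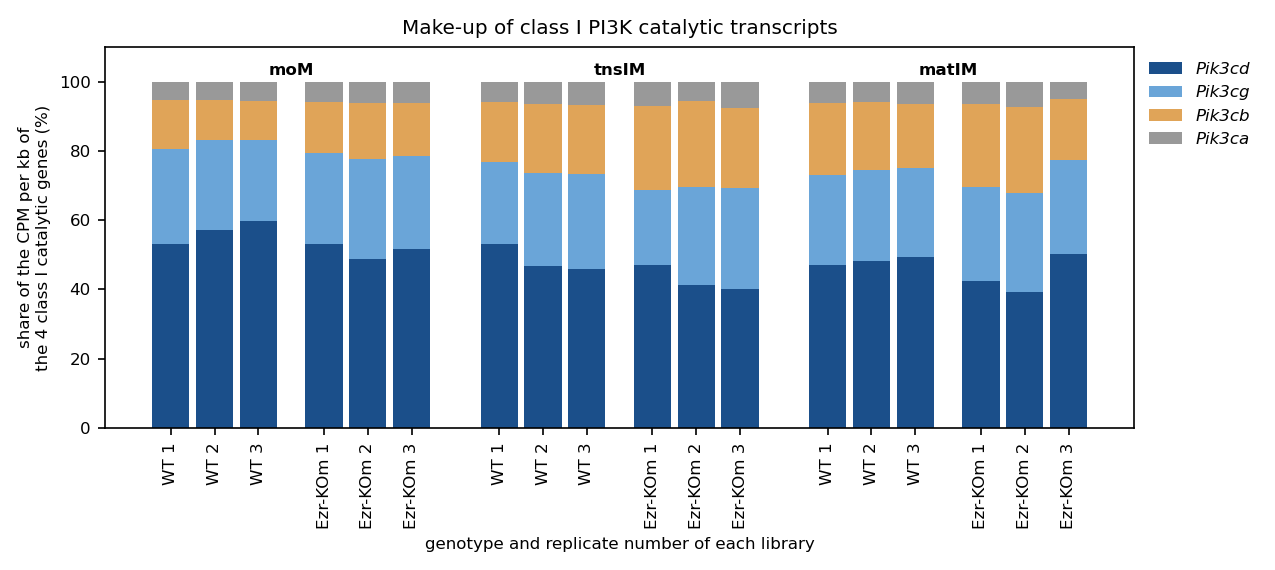
Share of each class I catalytic subunit in the summed CPM per kb of Pik3ca, Pik3cb, Pik3cd and Pik3cg, in percent, for each library by population and genotype. Pik3cd held the largest share in every group on average, from 56.7% in WT moMs to 42.8% in Ezr-KOm tnsIMs.

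The regulatory subunits split. Pik3r1, which encodes p85 alpha and its shorter forms, was higher in matIMs than in either of the other populations, whereas the second p85 gene Pik3r2 differed from moMs by -0.01 (95% interval -0.42 to 0.40). Pik3r1 measured 101, 50.2 and 68.9 CPM in the WT moM libraries, 84.2, 48.9 and 70.6 in tnsIMs and 177, 157 and 146 in matIMs. All 3 matIM libraries lay above the 6 others, and moMs and tnsIMs overlapped. The log2 difference of matIMs was 1.13 ± 0.24 from moMs (adjusted p = 0.00148) and 1.23 ± 0.24 from tnsIMs (adjusted p = 0.000903).

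The p110 gamma adaptors were called at different steps. Pik3r5 (p101) was higher in matIMs than in tnsIMs by 0.69 ± 0.15 (adjusted p = 0.00321). Pik3r6 (p84) was lower in matIMs than in moMs, with a log2 difference of -0.47 ± 0.16 (adjusted p = 0.033), a call lost without any 1 of 5 WT moM or matIM libraries (WT moM 2 and 3, WT matIM 1, 2 and 3, adjusted p 0.0542 to 0.0996). As a share of their summed per-kb level, Pik3r5 went from 57.5% ± 4.20 in WT moMs and 55.6% ± 10.02 in tnsIMs to 69.6% ± 0.791 in matIMs. Pik3ap1 and Irs2 did not pass the test between any WT populations.

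Of the class II and class III kinases, Pik3c2a, which works at endocytic and endosomal membranes, was lower in matIMs. It measured 39.8, 31.9 and 33.8 CPM in the WT moM libraries, 24.0, 11.7 and 32.4 in tnsIMs and 16.9, 20.8 and 21.4 in matIMs. The matIM and moM libraries did not overlap, while the tnsIM libraries ran from below the matIM range into the moM range. The difference of matIMs from moMs was -0.84 ± 0.27 (adjusted p = 0.0316) and was no longer called without WT moM replicate 1 (adjusted p = 0.0755), WT matIM replicate 1 (adjusted p = 0.0859) or WT matIM replicate 2 (adjusted p = 0.0506). Pik3c3 (VPS34), the autophagy lipid kinase, and its partner Pik3r4 differed by -0.09 and -0.19 between matIMs and moMs and did not pass the test.

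Among the AGC kinases, Akt1, Pdpk1 and Sgk1 did not pass the test without a block between WT populations, while Sgk3 and Akt2 did. With the replicate block, Sgk1 was called in WT matIMs against tnsIMs and against moMs. Akt1 differed by -0.19 between WT matIMs and moMs (95% interval -0.48 to 0.11), Pdpk1 (PDK1) by -0.22 (-0.67 to 0.23) and Sgk1 by -0.33 (-0.98 to 0.33). Sgk3, the endosomal SGK isoform, measured 197, 223 and 232 CPM in the WT moM libraries, 101, 115 and 118 in tnsIMs and 125, 162 and 154 in matIMs. It was lowest in tnsIMs, intermediate in matIMs and highest in moMs, with no overlap between any of the 3. It fell by 0.96 ± 0.18 from moMs to tnsIMs (adjusted p = 0.000878). In matIMs against moMs it was -0.56 ± 0.18 (adjusted p = 0.028), a call lost without WT moM replicate 2, WT moM replicate 3 or WT matIM replicate 1 (adjusted p 0.0545 to 0.0875). Akt2 was lowest in tnsIMs, with 34.9–47.3 CPM against 50.7–60.6 in moMs and 50.6–68.8 in matIMs. Its fall of 0.46 from moMs to tnsIMs (adjusted p = 0.0449) was lost without any 1 of 7 libraries (WT moM 2 and 3, Ezr-KOm moM 1, WT tnsIM 1 and 2, WT matIM 3 and Ezr-KOm matIM 2, adjusted p 0.0513 to 0.154). The fall was also lost with library totals only, upper-quartile factors, no filter, at least 10 counts in every library and only the groups compared (adjusted p 0.0602 to 0.117). The rise of Akt2 by 0.57 from tnsIMs to matIMs (adjusted p = 0.0166) was lost without WT tnsIM replicate 1, WT matIM replicate 2 or WT matIM replicate 3 (adjusted p 0.0751 to 0.100). It was also lost with only the groups compared (adjusted p = 0.0742).

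The phosphatases held the largest change of the set. Phlpp1, which dephosphorylates Akt and related kinases, measured 7.11, 5.92 and 4.13 CPM in the WT moM libraries, 9.88, 7.61 and 11.6 in tnsIMs and 28.3, 26.3 and 33.9 in matIMs. The 3 populations were separate and in that order. Phlpp1 was 5.18-fold higher in matIMs than in moMs (log2 2.37 ± 0.23, adjusted p = 4.38e-07) and 1.6 ± 0.22 higher on the log2 scale than in tnsIMs (adjusted p = 4.3e-05). The smaller step from moMs to tnsIMs, 0.77 ± 0.23 (adjusted p = 0.0219), was lost without WT moM replicate 3 (0.58, adjusted p = 0.108), WT tnsIM replicate 1 (0.74, adjusted p = 0.0507) or WT tnsIM replicate 3 (0.65, adjusted p = 0.0661). Its relative Phlpp2 lay at 1.25 CPM on average in WT moMs and differed by 0.23 between matIMs and moMs (95% interval -0.63 to 1.10).

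The paired 4-phosphatases went opposite ways. Inpp4b, at low counts, measured 3.58, 2.82 and 2.24 CPM in the WT moM libraries, 2.54, 2.66 and 4.07 in tnsIMs and 4.21, 7.04 and 5.03 in matIMs. Its matIM libraries were all above the other 6. The difference was 0.92 ± 0.26 from moMs (adjusted p = 0.0149), lost without WT moM replicate 2 (0.88, adjusted p = 0.0511), WT moM replicate 3 (0.73, adjusted p = 0.0888) or WT matIM replicate 2 (0.66, adjusted p = 0.112). From tnsIMs it was 0.80 ± 0.26 (adjusted p = 0.0386), lost without any 1 of 6 libraries (WT moM 2, WT tnsIM 1 and 2, WT matIM 2 and 3 and Ezr-KOm matIM 1, adjusted p 0.0522 to 0.241). Inpp4a, by contrast, was higher in moMs (26.7–33.0 CPM) than in tnsIMs (16.3–22.1) and matIMs (18.9–21.6), with log2 differences from moMs of -0.68 ± 0.16 (adjusted p = 0.00411) in tnsIMs and -0.56 ± 0.16 (adjusted p = 0.0118) in matIMs that were called in every setting tried. Inpp5d was lower in matIMs than in moMs (log2 difference -0.39 ± 0.13, adjusted p = 0.0344), although 1 matIM library at 343 CPM lay above 1 moM library at 341 CPM. That call was lost without WT moM replicate 2 or 3 or WT matIM replicate 1 or 2 (adjusted p 0.0656 to 0.113).

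**Figure D3:**
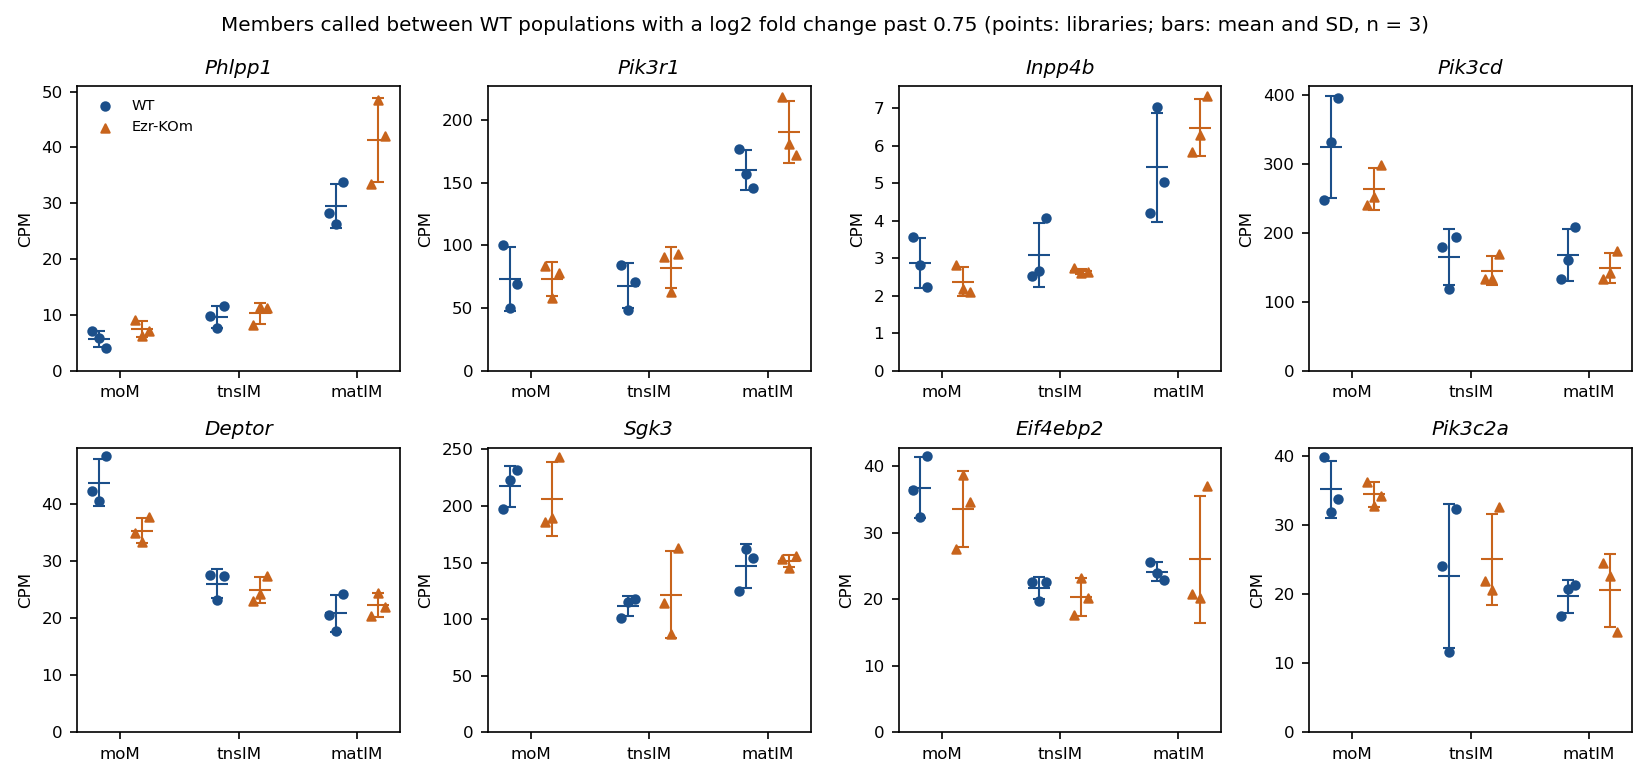
CPM in each library for members called between WT populations with a log2 difference above 0.75 in size, by population and genotype, with bars at the mean and SD of the 3 libraries of a group. WT Phlpp1 rose from 4.13–7.11 CPM in moMs to 26.3–33.9 in matIMs, and Pik3cd went from 247–395 to 133–208 CPM.

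Promoters, taken from RefSeq as 250 bases before to 50 after a transcript start on GRCm38.p6, were available for 36 of the 43 members and searched on both strands for 6 short motifs of factors active in phagocytes or in this pathway. GAGGAAGT (PU.1) lay in 3 of 54 member promoters, against 3.20% of all 32851 promoters of the table. TGACGTCA (CRE) lay in 2 of 54, against 1.79% of all. GTCACGTG (an E-box read by TFEB) lay in 3, in Irs1, Irs2 and Rheb, against 2.25%. GTAAACA (FoxO) lay in 4, in Akt1, Mapkap1 and Pik3cg, against 3.65%, TGACTCA (AP-1) in 1, in Pik3ca, against 5.2%, and GGACTTTCC or GGAATTTCC (NF-kappaB) in 0, against 0.658%. Overlapping windows of a gene held the same site in Pik3cg (PU.1), Inpp4a (CRE) and Mapkap1 (FoxO), and these sites were counted once for each window. The promoters below belong to the members called lower in WT matIMs than in moMs that held a PU.1 or CRE match. Capitals mark the match, which is GAGGAAGT in Inpp5d, its reverse complement in Pik3cg and TGACGTCA in Inpp4a. The windows are chr1:37299588-37299887 on the plus strand (Inpp4a), chr1:87620062-87620361 on the plus strand (Inpp5d) and chr12:32208610-32208909 on the minus strand (Pik3cg).
Inpp4a: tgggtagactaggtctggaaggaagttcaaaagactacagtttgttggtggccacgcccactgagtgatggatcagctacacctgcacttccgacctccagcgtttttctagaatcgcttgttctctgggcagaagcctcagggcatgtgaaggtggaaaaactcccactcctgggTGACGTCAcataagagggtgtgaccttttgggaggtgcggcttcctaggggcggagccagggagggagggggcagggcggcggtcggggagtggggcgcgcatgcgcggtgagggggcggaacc
Inpp5d: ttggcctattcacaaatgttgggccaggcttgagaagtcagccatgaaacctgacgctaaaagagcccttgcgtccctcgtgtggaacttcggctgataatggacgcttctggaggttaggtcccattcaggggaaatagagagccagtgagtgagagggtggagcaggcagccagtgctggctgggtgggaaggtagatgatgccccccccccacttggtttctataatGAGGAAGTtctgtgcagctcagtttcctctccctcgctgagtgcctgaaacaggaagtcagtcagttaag
Pik3cg: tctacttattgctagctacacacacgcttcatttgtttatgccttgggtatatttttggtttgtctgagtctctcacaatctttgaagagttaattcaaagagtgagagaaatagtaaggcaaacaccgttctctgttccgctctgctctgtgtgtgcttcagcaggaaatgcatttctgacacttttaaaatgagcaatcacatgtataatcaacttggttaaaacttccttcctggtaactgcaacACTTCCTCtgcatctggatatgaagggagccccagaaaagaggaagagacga
The first base of the match stood 74 bases before the annotated start in Inpp4a, 20 before it in Inpp5d and 2 before it in Pik3cg. A match describes these letters only and says nothing on binding. Any link between a match and the lower values in matIMs was not tested.

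In the TSC complex and Rheb, no member passed the test between WT populations. Tsc1 differed by 0.00 between matIMs and moMs (95% interval -0.36 to 0.37), Tsc2 by -0.17 (-0.50 to 0.16) and Rheb, the GTPase that activates mTORC1, by 0.07 (-0.30 to 0.44). The core of both mTOR complexes likewise did not pass the test. Mtor, the kinase, differed by 0.23 (-0.21 to 0.67), Rptor, which defines mTORC1, by 0.02 (-0.38 to 0.42), and Rictor, which defines mTORC2, by 0.08 (-0.39 to 0.56). Mapkap1 (SIN1, an mTORC2 subunit) differed by 0.14 (-0.13 to 0.41).

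The mTOR inhibitor Deptor was the exception among these genes. It measured 42.3, 40.6 and 48.4 CPM in the WT moM libraries, 27.6, 23.2 and 27.4 in tnsIMs and 20.5, 17.8 and 24.2 in matIMs. Every moM library was above all 6 others, and tnsIMs and matIMs overlapped. Deptor fell by 0.75 ± 0.14 from moMs to tnsIMs (adjusted p = 0.00101) and by 1.07 ± 0.14 from moMs to matIMs (adjusted p = 2.03e-05), in every setting tried. Akt1s1 (PRAS40), another mTORC1 inhibitor, differed by 0.51 between matIMs and moMs (adjusted p = 0.10), and it overlaps Tbc1d17 on the opposite strand, whose mean count was 1053 against 319 for Akt1s1. The strand used in counting was not given in the sources used here, so how reads shared by such pairs were assigned is not known.

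Among the direct mTORC1 substrates, Eif4ebp2, a repressor of cap-dependent translation, measured 36.5, 32.4 and 41.6 CPM in the WT moM libraries, 22.7, 19.8 and 22.7 in tnsIMs and 25.7, 24.0 and 22.9 in matIMs. The moM libraries lay above the rest without overlap. It was -0.76 ± 0.20 in tnsIMs (adjusted p = 0.0121), lost without WT moM replicate 3 (-0.66, adjusted p = 0.0556) or WT tnsIM replicate 2 (-0.67, adjusted p = 0.0523). It was -0.61 ± 0.20 in matIMs (adjusted p = 0.0354), lost without WT moM replicate 1 or 3 or WT matIM replicate 2 or 3 (adjusted p 0.0509 to 0.106). Its paralogue Eif4ebp1 differed by -0.52 between WT matIMs and moMs (adjusted p = 0.0647). The S6 kinase genes Rps6kb1 and Rps6kb2 differed by -0.08 and -0.09, and both overlap a gene on the opposite strand (Rnft1 and Coro1b).

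Of the FoxO factors, which Akt keeps out of the nucleus, Foxo1 passed the test without a block in WT cells. Foxo3 and Foxo4 did not, while Foxo3 was called from tnsIMs to matIMs with the replicate block. Foxo1 was higher in WT matIMs, at 38.2–43 CPM against 24.0–28.6 in moMs and 23.5–27.3 in tnsIMs, with no overlap. The differences were 0.62 ± 0.14 from moMs (adjusted p = 0.00249) and 0.63 ± 0.14 from tnsIMs (adjusted p = 0.00279). Foxo3 measured 15.5–17.5 CPM in moMs and 10.4–13.2 in matIMs and differed by -0.41 (adjusted p = 0.119). On the per-kb scale, Foxo1 held 52.4% ± 0.410 of the FoxO transcripts in WT moMs, 51.4% ± 7.53 in tnsIMs and 67.0% ± 4.68 in matIMs, and Foxo3 41.4%, 42.0% and 25.9%. Of the GSK3 genes, Gsk3a differed by 0.01 and Gsk3b by -0.34 between matIMs and moMs, the latter with an adjusted p of 0.106.

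In Ezr-KOm cells the same contrasts between populations called fewer members at 2 of 3 steps, where fewer of all tested genes were called too. Of all genes, 14.3% were called from moMs to tnsIMs against 21.6% in WT. Between moMs and matIMs the shares were 23.3% and 24.8%. From moMs to tnsIMs, 6 members were called (14.3% of members and 14.3% of all genes). By edgeR, 0 were higher, against 9.23% of all genes. Each was lower, as were 5.04% of all genes, and each was also called in WT cells, while Pik3cg and Phlpp1 were called in WT cells alone. From tnsIMs to matIMs, 7 members were called against 18.2% of all genes. The 6 WT genes were again higher, against 8.37% of all genes, and Foxo3 fell by 0.55 (adjusted p = 0.0468), 9.85% of all genes being lower. The Foxo3 call was lost in 11 of the 18 fits that left out 1 library, 4 of which left out Ezr-KOm tnsIM replicate 1 or 2 or Ezr-KOm matIM replicate 2 or 3 (adjusted p up to 0.174). Between moMs and matIMs, 9 were called against 23.3% of all genes, 7 of them shared with WT, with 4 higher and 5 lower where 12.5% and 10.7% of all genes were. The libraries did not overlap for 9, 12 and 20 members, against 28.7%, 31.2% and 39.9% of all genes. A call in 1 genotype does not show a difference between them, and that difference is tested below.

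Phlpp1 in Ezr-KOm cells measured 9.17, 6.24 and 7.09 CPM in moMs, 8.18, 11.4 and 11.3 in tnsIMs and 33.5, 48.4 and 42.0 in matIMs, a matIM to moM difference of 2.46 (adjusted p = 2.39e-07). Pik3r1 measured 83.5, 58.4 and 78.0 CPM in moMs, 90.7, 63.2 and 93.3 in tnsIMs and 219, 181 and 172 in matIMs (1.38, adjusted p = 0.000267). Inpp4b measured 2.83, 2.20 and 2.11 CPM in moMs, 2.74, 2.61 and 2.63 in tnsIMs and 5.84, 6.29 and 7.33 in matIMs (1.45, adjusted p = 0.000488). For all 3 genes every matIM library again lay above the 6 others. Deptor measured 34.9, 33.5 and 37.8 CPM in moMs, 23.0, 24.3 and 27.5 in tnsIMs and 20.5, 24.5 and 22 in matIMs (-0.67 between matIMs and moMs, adjusted p = 0.00198). Pik3cd measured 240, 251 and 298 CPM in moMs, 133, 134 and 169 in tnsIMs and 133, 142 and 174 in matIMs (-0.82, adjusted p = 0.00734). For both, moM libraries were the highest without overlap.

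Sgk3 measured 186, 189 and 244 CPM in moMs, 115, 87.3 and 163 in tnsIMs and 153, 145 and 156 in matIMs, and was called from moMs to tnsIMs (-0.76, adjusted p = 0.00721), though not without Ezr-KOm moM replicate 3 (-0.61, adjusted p = 0.0526). Eif4ebp2 measured 27.5, 38.8 and 34.6, then 17.6, 23.3 and 20.2, then 20.8, 20.2 and 37.0 CPM in the same order (-0.72 in tnsIMs, adjusted p = 0.0217), a call lost without Ezr-KOm moM replicate 2 or 3 or Ezr-KOm tnsIM replicate 1 or 3 (adjusted p 0.0554 to 0.0942). Its matIM replicate 3 lay within the moM range. Pik3c2a measured 36.3, 32.7 and 34.3, then 21.9, 20.6 and 32.6, then 24.5, 22.7 and 14.6 CPM (-0.74 in matIMs, adjusted p = 0.0577). Eif4ebp1 and Foxo3 were called lower in matIMs than in moMs, with log2 differences of -0.67 (adjusted p = 0.0184) and -0.69 (adjusted p = 0.0106), where the WT values were -0.52 and -0.41. The Eif4ebp1 call was lost without Ezr-KOm moM replicate 2 or 3 or Ezr-KOm matIM replicate 1 or 2 (adjusted p 0.0523 to 0.0659), and the Foxo3 call without Ezr-KOm moM replicate 3 or Ezr-KOm matIM replicate 3 (adjusted p 0.0559 and 0.0639).

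A block for the replicate number added calls in each of these Ezr-KOm comparisons. The moM to matIM count rose from 9 to 14, adding Mapkap1, Pik3c2a, Pik3cg, Sgk1 and Sgk3. The moM to tnsIM count rose from 6 to 8 (Pik3cg and Sgk1) and the tnsIM to matIM count from 7 to 10 (Eif4ebp1, Mapkap1 and Sgk1). For the blocked fit, the share of all tested genes was again not taken. The moM to tnsIM count of 6 was 1 without Ezr-KOm moM replicate 3 and 2 without Ezr-KOm tnsIM replicate 1, and of the 6 only the Pik3cd call held in every fit without 1 library. The dendritic markers of Ezr-KOm cells ran from 121–151 CPM in moMs to 283–427 in tnsIMs and 4420–4930 in matIMs, beside these changes, and the part of the markers was not tested.

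Loss of ezrin itself was the question of the series, and no member passed an adjusted p of 0.05 between Ezr-KOm and WT cells of any of the 3 populations by edgeR. DESeq2 and the fit with a replicate block also called 0. Among all genes, 0.171%, 0.164% and 0.152% were called. By an unadjusted p under 0.05, edgeR counted 1, 0 and 3 members, against 3.74%, 3.24% and 3.84% of all genes, and DESeq2 counted 2, 1 and 3. The rule of the study, an unadjusted p under 0.05 with a log2 difference above 0.75 in size, picked 0 members in each population, against 2.51%, 1.83% and 2.40% of all genes. The 95% interval of the difference lay within 0.75 of 0 for 35 members in moMs, 33 in tnsIMs and 36 in matIMs, so that larger changes than this were outside the interval for most of the set. The median half-width of the interval was 0.40 in each population, and Phlpp2, at few counts, had the widest.

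**Figure D4:**
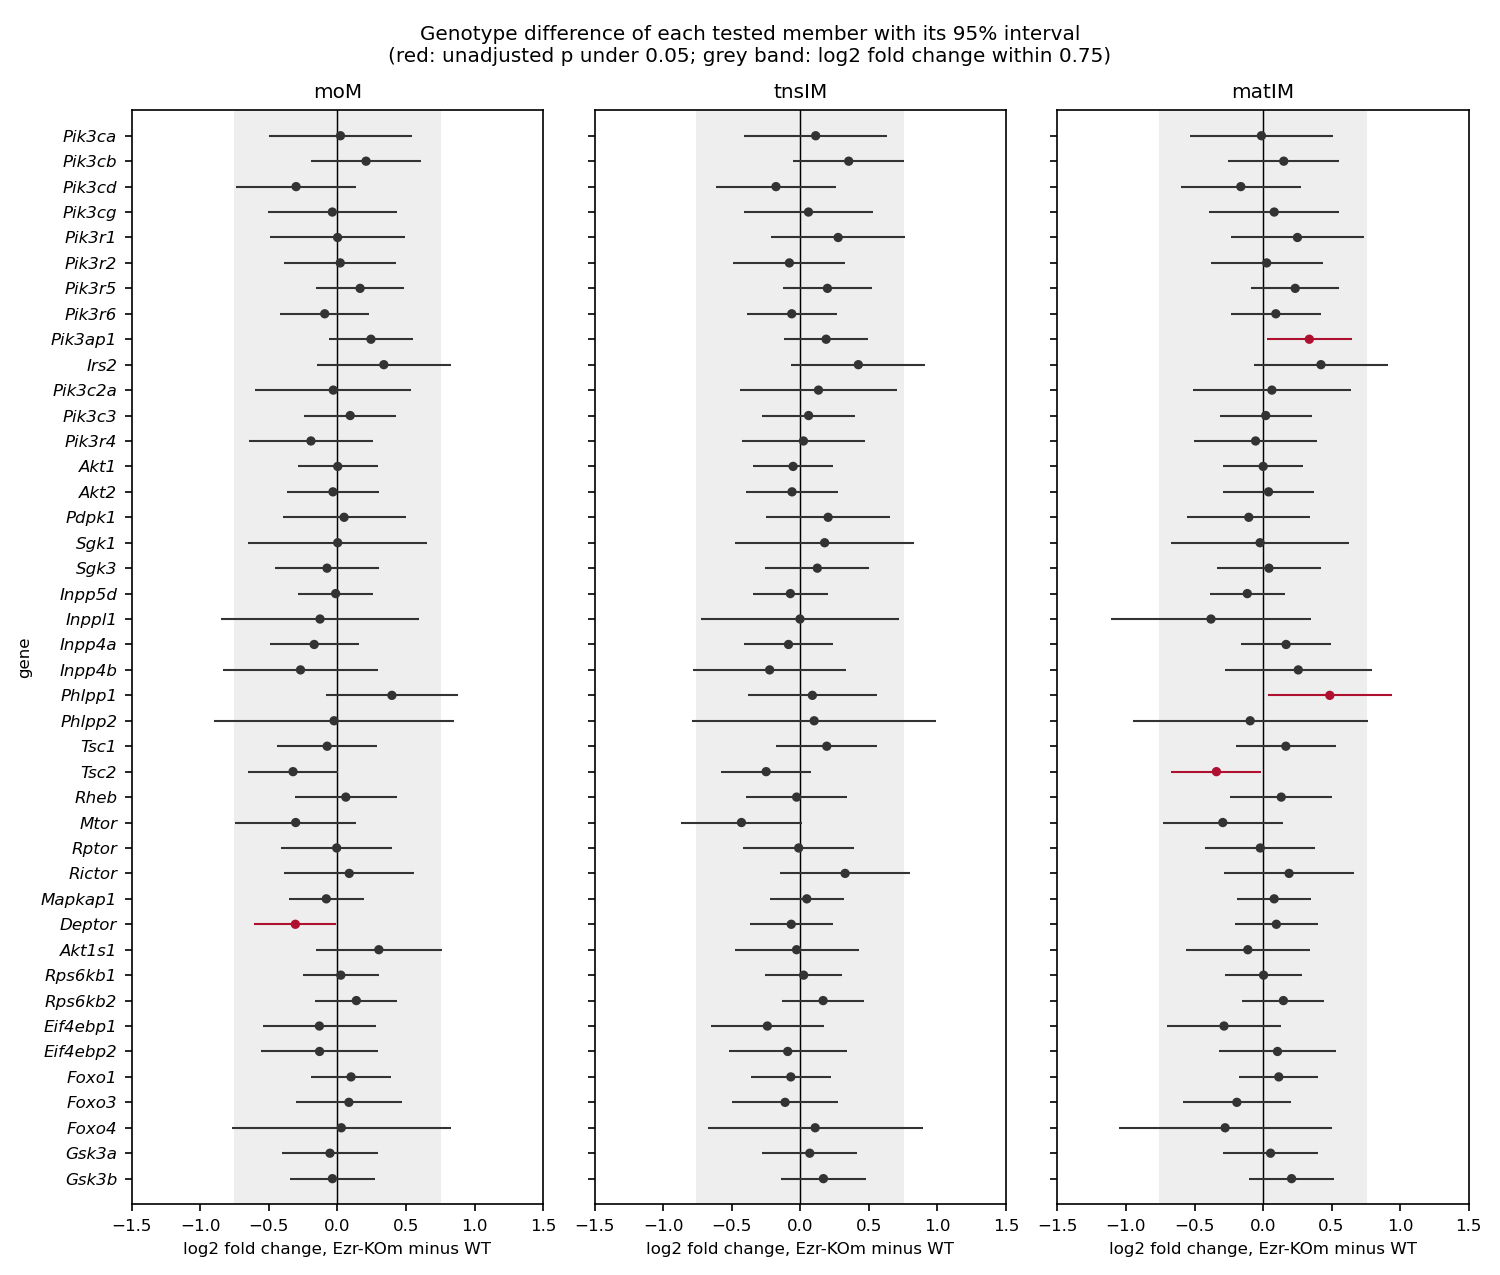
Log2 difference of Ezr-KOm from WT for each tested member, with its 95% interval, in moMs, tnsIMs and matIMs, with a grey band for differences of up to 0.75 in size and red marking an unadjusted p under 0.05. The intervals of 35, 33 and 36 of the 42 members lay within the band, and red marks Deptor in moMs and Pik3ap1, Phlpp1 and Tsc2 in matIMs.

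By edgeR, the members below an unadjusted p of 0.05 were Deptor in moMs and Pik3ap1, Phlpp1 and Tsc2 in matIMs, all with an adjusted p of 1. DESeq2 gave the same members and also Tsc2 in moMs and Mtor in tnsIMs, and the fit with a replicate block gave them with Tsc2 in moMs and Pik3cb in tnsIMs. Deptor was 33.5–37.8 CPM in Ezr-KOm moMs against 40.6–48.4 in WT moMs, a log2 difference of -0.31 (95% interval -0.61 to -0.01) without overlap. In tnsIMs it was -0.07 and in matIMs 0.10. Pik3ap1 was 401, 420 and 470 CPM in Ezr-KOm matIMs against 301, 340 and 381 in WT matIMs, 0.34 higher (95% interval 0.03 to 0.65) without overlap, and 0.24 and 0.19 higher in moMs and tnsIMs. Phlpp1 was 0.49 higher in Ezr-KOm matIMs (95% interval 0.03 to 0.94), where its lowest library at 33.5 CPM lay just under the highest WT library at 33.9 CPM.

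Groups did not overlap for 6 members in moMs, 0 in tnsIMs and 5 in matIMs, against 8.52%, 5.81% and 10.1% of all genes. In moMs, Deptor and Mtor were lower in Ezr-KOm cells and Irs2, Pik3ap1, Pik3r5 and Rictor higher. In matIMs, Tsc2 was lower and Gsk3b, Pik3ap1, Pik3r5 and Tsc1 higher. The sign of the difference was the same in all 3 populations for 40.5% of the members, against 39.9% of all tested genes, with 10 members above 0 and 7 below. Tests of whether the genotype difference itself varied between populations called 0 members by edgeR and by DESeq2, with 0 at an unadjusted p under 0.05 by edgeR, while 0% of all genes were called and 1.47%, 1.16% and 1.70% had an unadjusted p under 0.05. DESeq2 and the blocked fit each put Deptor below an unadjusted p of 0.05 for matIMs against moMs (log2 0.40 in the unblocked edgeR fit, in which it did not pass). None of the marker lists of other cells had a gene called between genotypes.

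Pik3cd, Mtor and Tsc2 lie in chromosome stretches rich in genes with an unadjusted p under 0.05 between genotypes, set against all tested genes. Mtor (chr4:148533068-148642140, plus strand, GRCm39) and Pik3cd (chr4:149733625-149787028, minus strand) lie close together on chromosome 4, and Tsc2 (chr17:24814790-24851604, minus strand) lies on chromosome 17, which also carries the member Pdpk1 (chr17:24292654-24369898, minus strand). Within 2 Mb of Mtor, 6 of 50 tested genes (12%) had an unadjusted p under 0.05 between genotypes in all 3 populations. The counts were 4 of 54 (7.41%) around Pik3cd, 12 of 110 (10.9%) around Tsc2 and 10 of 103 (9.71%) around Pdpk1, windows that overlap in pairs. Over all tested genes the share was 0.626%. Around Tsc2, 6 neighbours reached an adjusted p under 0.05 in at least 1 population, as did 5 around Pdpk1, against 0.215% of all genes. The count was 0 around Mtor, 0 around Pik3cd and 1 each around Rptor, Rps6kb2 and Gsk3a. By the first measure, 5 members besides Pik3cd, Mtor, Tsc2 and Pdpk1 had such neighbours, with 1 or 2 each. That measure asks for all 3 populations at once. Around Akt1, 1 neighbour met it (0.98%). Taken singly, moMs, tnsIMs and matIMs gave 4, 11 and 14 neighbours of Akt1 with an unadjusted p under 0.05. The counts around Pik3cd were 7, 10 and 6 of its 54. Of all tested genes, 3.74%, 3.24% and 3.84% were under that p. Any part of this stretch in the Akt1 values was not tested.

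Mtor measured 26.7, 23.6 and 24.6 CPM in WT moMs against 18.2, 22.6 and 19.8 in Ezr-KOm moMs, a log2 difference of -0.30 (95% interval -0.74 to 0.14). In tnsIMs it measured 29.9, 16.7 and 29.6 against 17.7, 19.2 and 19.8 CPM (-0.43, 95% interval -0.87 to 0.01), and in matIMs 28.5, 24.6 and 34.7 against 26.1, 27.9 and 17.6 CPM (-0.29, 95% interval -0.73 to 0.14). The groups were separate in moMs and overlapped in tnsIMs and matIMs.

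Tsc2, the GTPase-activating subunit that turns off Rheb, measured 51.9, 64.9 and 64.0 CPM in WT moMs against 46.2, 53.7 and 44.6 in Ezr-KOm moMs (-0.32, 95% interval -0.65 to 0.00). The values were 53.8, 39.4 and 56.4 against 38.2, 42.1 and 45.8 CPM in tnsIMs (-0.25, 95% interval -0.58 to 0.08), and 52.7, 50.4 and 57.9 against 41.9, 49 and 36.2 CPM in matIMs (-0.34, 95% interval -0.67 to -0.01). Only in matIMs were the groups separate. Tsc2 overlaps Pkd1 on the opposite strand, with mean counts of 1246 for Tsc2 and 706.4 for Pkd1.

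Pik3cd had genotype differences of -0.30 for moMs, -0.18 for tnsIMs and -0.16 for matIMs (95% intervals -0.74 to 0.13, -0.61 to 0.26 and -0.60 to 0.27), with overlap in each population. Without WT matIM replicate 3 its matIM difference was 0.02, so its sign there rested on 1 library. Mtor and Tsc2 were below 0 in every population and setting tried. By the edgeR fit of all 18 libraries, every adjusted p for the 3 genes was 1, and the lowest in any other setting was 0.61 (Mtor in tnsIMs). Any effect of the loss of ezrin on these genes and any effect of their chromosome stretch cannot be told apart in this design.

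**Figure D5:**
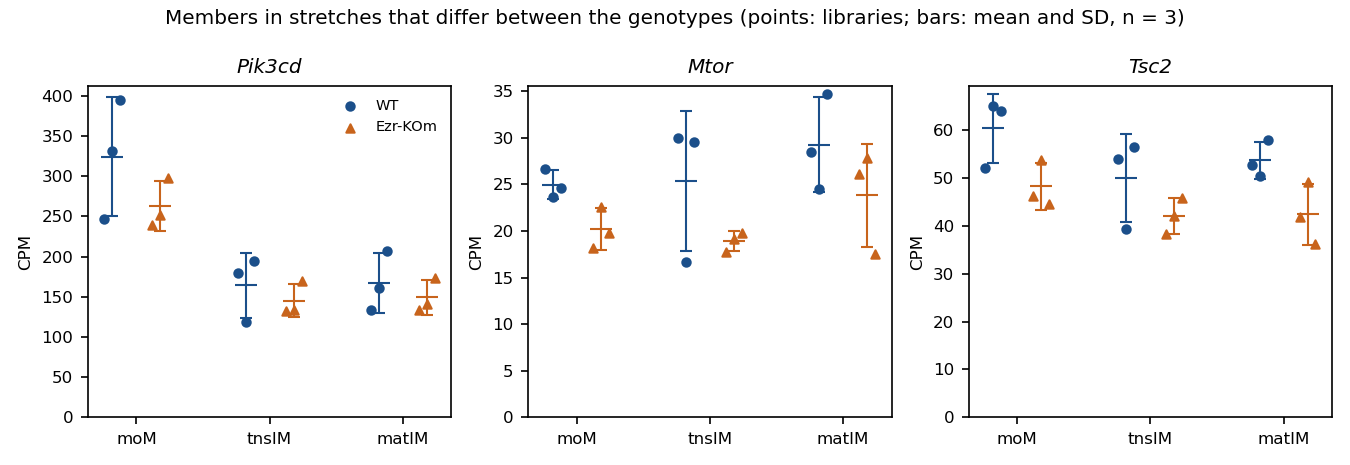
CPM of Mtor, Pik3cd and Tsc2 in each library of WT and Ezr-KOm cells, by population, with bars at the mean and SD of the 3 libraries of a group. Ezr-KOm means were below WT means for each gene in each population, and the libraries overlapped except for Mtor in moMs and Tsc2 in matIMs.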

How the data were processed

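Lung moMs, tnsIMs and matIMs were profiled by SMART-Seq v4 bulk RNA-seq in 3 WT and 3 Ezr-KOm libraries each. Per the labels and the study's methods, the authors aligned read pairs to GRCm39 with STAR 2.7.9a and deposited raw counts per gene. The strand that was counted is not given in the sources used here. Total counts per library were 16512783 to 48460995. The study describes 3 mice per genotype, and the labels do not name the mouse of a library. Replicates differed beyond sampling noise (lowest chi-square per degree of freedom 21.9).

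Counts were tested with edgeR 4.0.16 in R 4.3.3. Genes were kept by filterByExpr (minimum count 10), normalized with TMM (factors 0.931 to 1.07) and fitted as 6 groups over 18 libraries with glmQLFit and glmQLFTest, two-sided. P-values were adjusted by Benjamini-Hochberg over 15811 genes and called under 0.05. CPM are TMM-scaled, and log2 differences are given with their SE. Per-kb levels used the canonical transcript of Gencode vM39. Alternatives were DESeq2 1.42.0, upper-quartile factors, library totals, no filter, at least 10 counts in every library, only the groups compared, 2 replicate blocks and each library left out. Scripts were tested on simulated data.

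Deviations from group means correlated at 0.118 to 0.43 between genotypes and 0.117 to 0.524 between populations for libraries of one number, and at most 0.0647 and 0.0437 for different numbers, so the numbers were taken to pair the libraries. The members and lists were chosen with earlier results of these data known. Values in every library are given for members called with a log2 difference above 0.75 in size between WT populations, and for Pik3cd, Mtor and Tsc2. A planned comparison of paralogue proteins was not made here.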

Additional observations from a re-analysis of the deposited data

How the results depend on the processing

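Of 49 calls of members between populations, 27 held in all 26 settings (18 that left out 1 library and 8 others), and 0 changed sign. Called members between WT matIMs and moMs went from 13 to 7 with library totals only, losing Pik3cg, Pik3r6, Pik3c2a, Sgk3, Inpp5d and Eif4ebp2. Library totals also lost the Pik3cg call in WT tnsIMs (adjusted p = 0.0745). The Phlpp1 call in WT tnsIMs was lost with only the groups compared (adjusted p = 0.0649). Inpp4b between WT matIMs and tnsIMs was lost without a filter, with upper-quartile factors and with only the groups compared (adjusted p 0.0525 to 0.142). Between Ezr-KOm tnsIMs and moMs, called members went from 6 to 3 with library totals only and to 3 with only the groups compared. Akt2 and Deptor were lost in both settings. Between Ezr-KOm matIMs and moMs they went from 9 to 15 with only the groups compared, 14 with the replicate block and 16 with the replicate block within genotype. The cause was not tested. Counts without 1 library ran from 4 to 11 (WT tnsIMs against moMs), 4 to 8 (WT matIMs against tnsIMs), 7 to 14 (WT matIMs against moMs), 1 to 7 (Ezr-KOm tnsIMs against moMs), 6 to 9 (Ezr-KOm matIMs against tnsIMs) and 7 to 13 (Ezr-KOm matIMs against moMs). Shares of all tested genes were not taken in these settings. Genotype and interaction counts stayed at 0 in every setting. Some genotype differences turned sign without 1 library, namely Phlpp1 in tnsIMs (-0.053 without WT tnsIM replicate 2, up to 0.22), Deptor in tnsIMs (-0.14 to 0.0070, the latter without WT tnsIM replicate 1) and Pik3cd in matIMs (-0.29 to 0.021, the latter without WT matIM replicate 3). The replicate block gave 8 and 10 members from moMs to tnsIMs and from tnsIMs to matIMs in Ezr-KOm cells, and no call was lost under it. Library totals shifted the median gene by over 0.1 only between Ezr-KOm matIMs and moMs (0.125). Low counts limit Phlpp2, Foxo4 and Inpp4b most, and Irs1 was below the filter.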

Other observations

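Genes around the pathway were read from 4 wider lists, and their part in the members' values was not tested. Between WT matIMs and moMs, 12 of 27 receptors and adaptors upstream of PI3K were lower and 4 higher (median log2 difference -0.45, against 0.01 over all genes), where 11.4% of all tested genes were lower and 13.4% higher. Gab1, a docking adaptor, averaged 43.6 CPM in WT moMs and 4.71 in matIMs (-3.21, adjusted p = 3.41e-05). The LPS co-receptor Cd14 averaged 8753 and 3472 CPM (-1.33, adjusted p = 4.18e-05), the growth factor receptor Csf1r 2570 and 1472 CPM (-0.80, adjusted p = 8.68e-05), and Trem2, which signals through Tyrobp, 58.3 and 23.3 CPM (-1.32, adjusted p = 9.72e-05). The Ezr-KOm cells also had 12 lower and 4 higher.

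Of the transcripts that mTORC1, ATF4 and SREBP are known to induce, 13 of 30 were higher in WT matIMs and 1 lower (median 0.53), the lower one being Hif1a (-0.49, adjusted p = 0.0282). The fatty acid desaturase genes Fads2 and Fads1 were higher by 3.59 (adjusted p = 7.18e-07) and 1.77 (adjusted p = 3.15e-06), and the one-carbon and serine enzymes Mthfd2 and Phgdh by 0.78 (adjusted p = 4.87e-05) and 1.33 (adjusted p = 8.58e-05). In Ezr-KOm cells 13 were higher and 3 lower. Genes known as FoxO targets were lower for 9 of 18 and higher for 1 in WT matIMs (median -0.40). Among them, Pink1 fell by 1.18 (adjusted p = 0.000314) and Bnip3 by 0.86 (adjusted p = 0.00624), while Il7r rose by 2.11 (adjusted p = 1.33e-07). Of the amino acid, energy and stress inputs to mTORC1, 6 of 34 were higher and 2 lower (median 0.06), close to the share of all tested genes called in either direction (24.8%). They included the sestrin gene Sesn3 (1.68, adjusted p = 0.000278), the CASTOR gene Castor2 (1.34, adjusted p = 0.00179), Rragb (2.11, adjusted p = 0.00611) and, lower, Flcn (-0.64, adjusted p = 0.00265). All these changes stood beside the rise of dendritic and B cell markers in matIMs.

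Between genotypes, 0 genes of the 4 lists passed an adjusted p of 0.05 by edgeR. The rule of the study picked Il7r in tnsIMs (0.77, adjusted p = 0.212) and, in matIMs, Rragd (1.13), Fads2 (-0.77) and Scd2 (-0.75), each with an adjusted p of 1 in matIMs.

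Several members, chosen after their values were seen, followed the replicate number across groups. Sgk1 was highest in replicate 1 in 6 of 6 groups (1230, 754 and 761 CPM in WT moMs), and Pik3cd was highest in replicate 3 in 6 of 6. Akt1 and Mapkap1 were lowest in replicate 1 and Rictor in replicate 2 in 6 of 6 groups. The share of all tested genes with such a rank was not taken, so this is not a trait of the members.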
